A study of Mus musculus with 8 samples.

Results

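Integrins are cell surface receptors made of an α and a β chain. Here 9 of their genes were followed in microglia of mice with *Smad2* and *Smad3* targeted for deletion. *Itgam*, *Itgal* and *Itgb2* encode chains of the leukocyte integrins. The others were *Itga4*, *Itga5*, *Itga6*, *Itga9*, *Itgb3* and *Itgb7*, most of whose products bind matrix proteins or vessel wall adhesion molecules. The 9 genes were taken by gene symbol from the 55573 genes of the deposited count matrix. Brain microglia were sorted at postnatal day 60 from 4 mutants and from 4 littermate controls, and each mouse gave 1 RNA library. The mutant genotype was *Smad2/3* fl/fl;*Cx3cr1* Cre, in which Cre is meant to delete both genes. The controls are wild-type in the labels, but by the Methods a usual control animal had Cre together with a single floxed copy, so that Cre may be common to both groups. Cre made from the *Cx3cr1* locus acts in microglia and in related macrophages. According to the Methods, brain cells were purified on Percoll, and cells positive for tdTomato, a Cre reporter, were examined for CD45 and CD11b. The Methods do not say whether the controls carried that reporter. The study's reporting summary describes sorting by CD45 and CD11b, so the protein product of *Itgam* was itself part of the gate.

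Many integrins bind ligand strongly only after talin and kindlin engage the short cytoplasmic tail of the β chain from inside the cell. This step can lie downstream of the small GTPase RAP1. The β2 chain pairs with αL, αM, αX or αD and is found on white blood cells, where αMβ2 is the complement receptor that defines CD11b+ cells, microglia included, and αLβ2 binds ICAM proteins. The α4 chain pairs with β1 or β7 and binds VCAM1 and MAdCAM1, the α5, α6 and α9 chains pair mainly with β1, and β3 pairs with αV or, in platelets and megakaryocytes, with αIIb.

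Levels are given as CPM, the counts of a gene scaled to a common library total, here after TMM scaling, which corrects that total for composition. Differences are log2 fold changes of mutants over controls from edgeR's quasi-likelihood test. Their standard error (SE), also in the figures, is the absolute log2 fold change divided by the square root of that test's F statistic. A gene was called when its Benjamini-Hochberg adjusted p over all genes tested was under 0.05. The 9 integrin genes were chosen with earlier results of these data known, so their calls are not those of an unselected list. All 9 passed the count filter. Of them, 6 were called, 3 higher (*Itgal*, *Itga4*, *Itga9*) and 3 lower (*Itgam*, *Itgb2*, *Itgb3*) in the mutants, while 12.3% of the 20153 genes tested were called, 4.36% higher and 7.97% lower. For the same 6 genes the mutant and control libraries did not overlap, against 22.1% of all genes tested (9.04% with all mutants above and 13% with all mutants below the controls). The median log2 fold change of the 9 genes was -0.10, beside 0.01 over all genes tested, and the 9 genes thus moved in both directions.

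**Figure D1:**
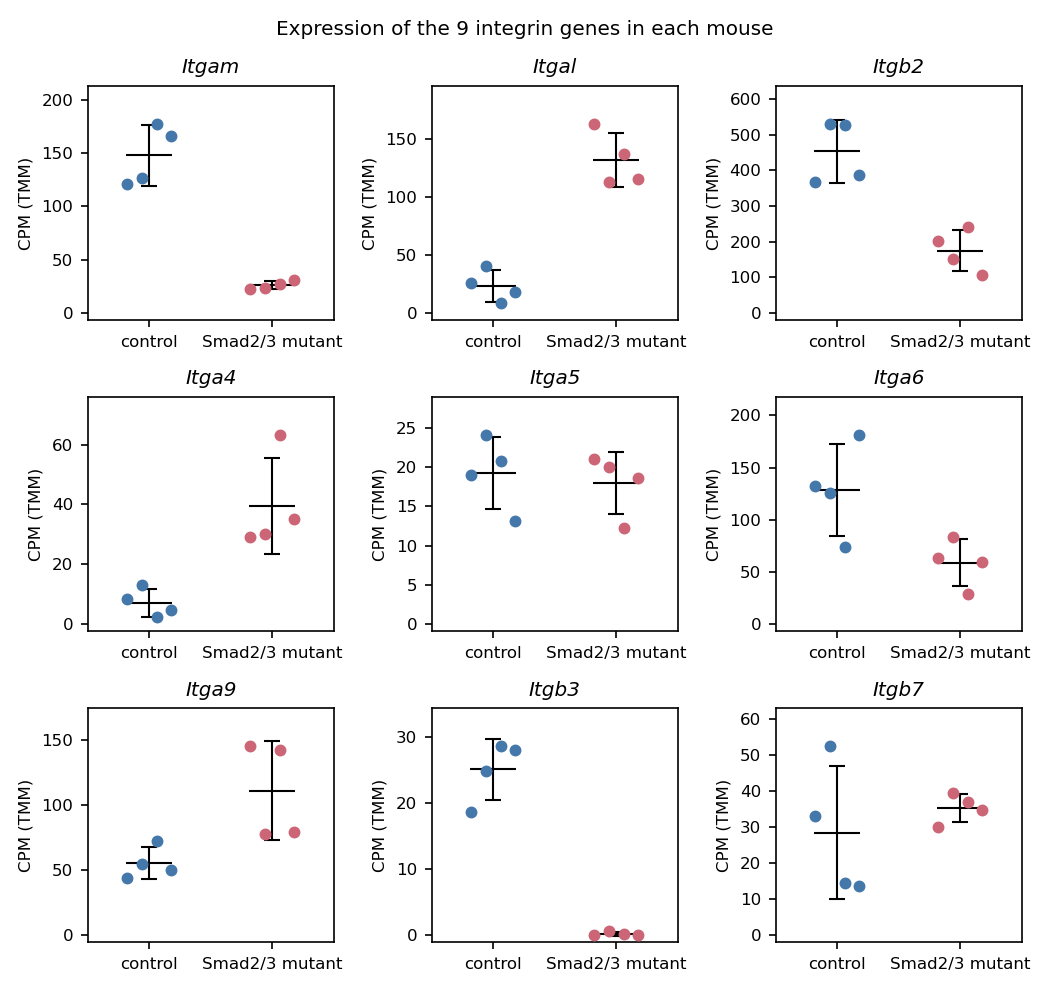
TMM-scaled CPM (vertical axes, linear, each with its own range) of the 9 integrin genes in the 4 control and 4 *Smad2/3* mutant libraries. Each point is a mouse, and the bar and whiskers are the mean ± SD. *Itgam*, *Itgb2* and *Itgb3* lay lower in every mutant than in any control, *Itgal*, *Itga4* and *Itga9* lay higher, and *Itga5*, *Itga6* and *Itgb7* overlapped.

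Libraries held 35639502 to 41946479 counts. *Smad3* lay at 39.4 to 56.8 CPM in controls and 9.60 to 35.1 CPM in mutants (log2 fold change -1.33, SE 0.36, edgeR adjusted p = 0.0429), and it was called in 1 of the 8 fits that left out a library. *Smad2* was not called (-0.34, edgeR adjusted p = 0.340). Counts over a whole gene do not resolve the floxed exons, so the deletion itself was not measured here. Microglial markers were lower in the mutants, 8 of 8 called, at a summed 5260 to 7610 CPM against 30952 to 47281 CPM, and *Csf1r*, the receptor that most tissue macrophages need, was still at 2333 to 4200 CPM in every mutant. Of 6 markers of border-associated macrophages, 4 were called higher, at a summed 1596 to 2482 CPM against 47.4 to 93.1 CPM, and the part of either shift in the integrin values below was not tested. Markers of astrocytes, oligodendrocytes, neurons and endothelial cells were called by edgeR for 0 of 18 genes tested (1, *Pecam1*, at an unadjusted p under 0.05 and by DESeq2). Their sums were 196 to 1342, 597 to 4325, 25.1 to 269 and 9.81 to 15.1 CPM in controls and 315 to 1086, 1081 to 3601, 77.1 to 270.0 and 2.37 to 9.55 CPM in mutants, and the neural sums were highest in control 1 and mutant 1. In bulk RNA, a different number of cells of a type and a different amount of RNA per cell cannot be told apart. Sex-linked transcripts split exactly as the genotype did, with *Xist* at 99.3 to 183 CPM in controls and 0.0276 to 0.561 CPM in mutants. Sex and genotype thus cannot be told apart in these libraries. All 9 integrin genes are autosomal, and whether their levels differ by sex was not tested.

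Sequence upstream of a start site was at hand for 5 of the 9 genes in the RefSeq tables of GRCm38.p6, and not for *Itgal*, *Itgb2*, *Itga6* and *Itgb3*. Each window runs from 250 bases before to 50 bases after the start. Windows are shown for *Itgam* (chr7:128062390-128062689, plus strand), the member that was called lower at the smallest adjusted p, and for *Itga4* (chr2:79255176-79255475, plus strand), the member called higher whose RefSeq start coincides with its annotated gene start. Capitals mark GAGGAA or TTCCTC, the core bound by the myeloid factor PU.1, and CAGAC or GTCTG, the box bound by SMAD proteins.
Itgam: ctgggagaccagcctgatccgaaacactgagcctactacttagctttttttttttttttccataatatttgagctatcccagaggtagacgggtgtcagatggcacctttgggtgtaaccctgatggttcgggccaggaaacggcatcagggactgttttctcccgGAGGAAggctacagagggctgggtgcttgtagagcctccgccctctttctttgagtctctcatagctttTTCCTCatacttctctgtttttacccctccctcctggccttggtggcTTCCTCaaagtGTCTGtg
Itga4: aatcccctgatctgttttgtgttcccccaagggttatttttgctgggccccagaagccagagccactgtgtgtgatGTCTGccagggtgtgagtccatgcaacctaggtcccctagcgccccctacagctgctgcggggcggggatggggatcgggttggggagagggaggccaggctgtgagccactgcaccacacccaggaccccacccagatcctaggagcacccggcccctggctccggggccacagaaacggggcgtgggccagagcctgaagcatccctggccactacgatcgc
The *Itgam* window held 3 copies of the PU.1 core and 1 SMAD box, and the *Itga4* window held no PU.1 core and 1 SMAD box. Of the windows not shown, that of *Itga9*, called higher, held 3 SMAD boxes and no PU.1 core. This *Itga9* window (chr9:118711442-118711741) lies inside the gene, far downstream of its annotated start at 118606690. Those of *Itga5* and *Itgb7*, neither called, each held 2 SMAD boxes and 1 PU.1 core. A link between these matches and the direction of a gene was not tested. Among 32851 mouse promoter windows, 28.3% held the PU.1 core and 49.6% the SMAD box on either strand. GGCGC (SMAD GC box, 36.9% of windows) and TGTGGT (RUNX core, 16.8%) were each found once in the *Itga4* window and not in that of *Itgam*, and TGANTCA (AP-1 site, 7.81%) was in neither. GGCGC was searched together with GCGCC and TGTGGT with ACCACA, while TGANTCA reads alike on both strands. These matches describe letters, and binding was not measured here.

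*Itgam*, which encodes αM (CD11b), was expressed at 120.5, 126, 177 and 166 CPM in controls 1 to 4 and at 22.1, 23.4, 27.5 and 30.9 CPM in mutants 1 to 4. Every mutant lay below every control, and the spread within each group was small beside the gap. The mean fell from 148 ± 28.3 to 26.0 ± 4.03 CPM (SD, n = 4 each), 5.68-fold (log2 fold change -2.51, SE 0.19, edgeR adjusted p = 9.758e-05). The gene lies on chromosome 7 (GRCm38, chr7:128062640-128118491, plus strand), and 3450 of its 5024 exon bases (68.7%) also belong to the readthrough gene *Gm49368*. The row of *Gm49368* held 0 counts in 7 of the 8 libraries and 7 counts in the other, so reads on the shared bases were hardly assigned to that gene, and the *Itgam* counts may come from its 1574 unshared bases alone, 1430 of which follow the last shared base. Markers of neutrophils, another population rich in CD11b, were called lower for 2 of 7 genes (*Camp* and *Ltf*), and their sum overlapped between controls (550 to 2575 CPM) and mutants (260 to 806 CPM). Their part in the *Itgam* difference was not tested.

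*Itgal*, which encodes αL (CD11a) and lies on the same chromosome (chr7:127296260-127335138, plus strand), was at 25.6, 40.6, 8.41 and 17.9 CPM in controls 1 to 4. In mutants 1 to 4 it was at 164, 113, 138 and 116 CPM, and the lowest mutant thus lay well above the highest control. The mean rose 5.72-fold, from 23.1 ± 13.6 to 132 ± 23.5 CPM (log2 fold change 2.52, SE 0.42, edgeR adjusted p = 0.00519). *Itgal* is abundant in T and NK cells, of whose 8 markers 2 (*Cd3e* and *Nkg7*) were called higher by edgeR. At an unadjusted p under 0.05, 4 of the 8 passed, and DESeq2 called 4. The median log2 fold change of the 8 was 1.55. Their sum was 20.01 to 67.4 CPM in controls and 59.1 to 184 CPM in mutants. In mutant 4 the sum was 59.1 CPM, within the control range, and *Cd8a* was at 0, while *Cd3e* at 7.91 CPM and *Nkg7* at 23.2 CPM lay above every control. The part of T and NK cells in the *Itgal* difference was not tested. Monocyte markers were called for 0 of 5 genes, at 181 to 412 CPM in controls and 122 to 263 CPM in mutants, and B cell markers for 0 of 5 genes, at 49.0 to 68.2 and 40.1 to 68.5 CPM (edgeR). At an unadjusted p under 0.05, 1 monocyte marker (*Chil3*, lower) and 0 B cell markers passed, and DESeq2 called 1 and 0.

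*Itgb2*, which encodes the shared β2 chain (CD18; chr10:77530252-77565708, plus strand), was at 368, 530.3, 528 and 386 CPM in controls 1 to 4 and at 201, 152, 240.3 and 106 CPM in mutants 1 to 4. The groups did not overlap, and the mutants spread more widely in proportion to their mean than those of *Itgam* did. The mean fell 2.59-fold, from 453 ± 87.9 to 175 ± 58.5 CPM (log2 fold change -1.38, SE 0.27, edgeR adjusted p = 0.0104). *Itgax* (αX, CD11c), also used as a marker of dendritic cells, was at 2.63, 8.37, 10.5 and 15.3 CPM in controls and 1.19, 3.00, 1.196 and 0.193 CPM in mutants, overlapped and was not called (edgeR adjusted p = 0.0529). It was called by DESeq2 (adjusted p = 0.00233), and by edgeR without control 1 (adjusted p = 0.0363) and without mutant 2 (0.0422). *Itgad* (αD) was at 1.23 to 1.83 CPM in controls and 0 to 0.388 CPM in mutants, without overlap and without a call (edgeR adjusted p = 0.0964, DESeq2 adjusted p = 0.0119).

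To set the partners of β2 side by side, CPM was divided by the exon length in kb that no other counted gene shares. This comparison was not planned in advance, with this length or with the full exon length given below. *Itgam* made up 93.9%, 90.5%, 96.7% and 94.3% of the summed level of the 4 α genes in controls 1 to 4, and *Itgal* 4.79%, 6.96%, 1.10% and 2.44%. In mutants 1 to 4 *Itgam* made up 35.8%, 45.4%, 45.2% and 52.7% and *Itgal* 63.5%, 52.4%, 54.2% and 47.2%. The mix of α transcripts thus went from almost all *Itgam* to similar amounts of both, with *Itgal* ahead in 3 of 4 mutants. The mean share of *Itgam* was 93.9 ± 2.55% in controls and 44.7 ± 6.93% in mutants, and that of *Itgal* 3.82 ± 2.59% and 54.3 ± 6.78%. With the full exon length in place of the unshared bases, a choice made after the overlap had been seen, the share of *Itgam* was 83.2% in controls and 20.5% in mutants and that of *Itgal* 10.6% and 78.2%. With either length the mean share of *Itgam* was lower and that of *Itgal* higher in the mutants, without overlap, and the size of the shares depended on the length used. *Itgal* was ahead in 3 of 4 mutants with the unshared length and in 4 of 4 with the full length.

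The summed level of the 4 α genes was 99.6 ± 17.1 CPM per kb in controls and 37.0 ± 2.93 in mutants, while *Itgb2* was at 149 ± 28.8 and 57.3 ± 19.2 CPM per kb. On this length both were lower in every mutant than in any control. The ratio of *Itgb2* to the summed α level was 1.48, 1.96, 1.49 and 1.13 in controls and 1.68, 1.52, 2.04 and 0.930 in mutants, with means of 1.51 ± 0.340 and 1.54 ± 0.461, and the groups overlapped. Neither statement held with the full exon length, chosen after the overlap with *Gm49368* had been seen. The summed α level was then 28.8 to 39.3 CPM per kb in controls and 22.5 to 29.6 in mutants, which overlapped, and the ratio was 3.22 to 5.19 in controls and 1.46 to 2.95 in mutants, which did not. Whether *Itgb2* kept pace with its α partners thus cannot be read from these counts.

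**Figure D2:**
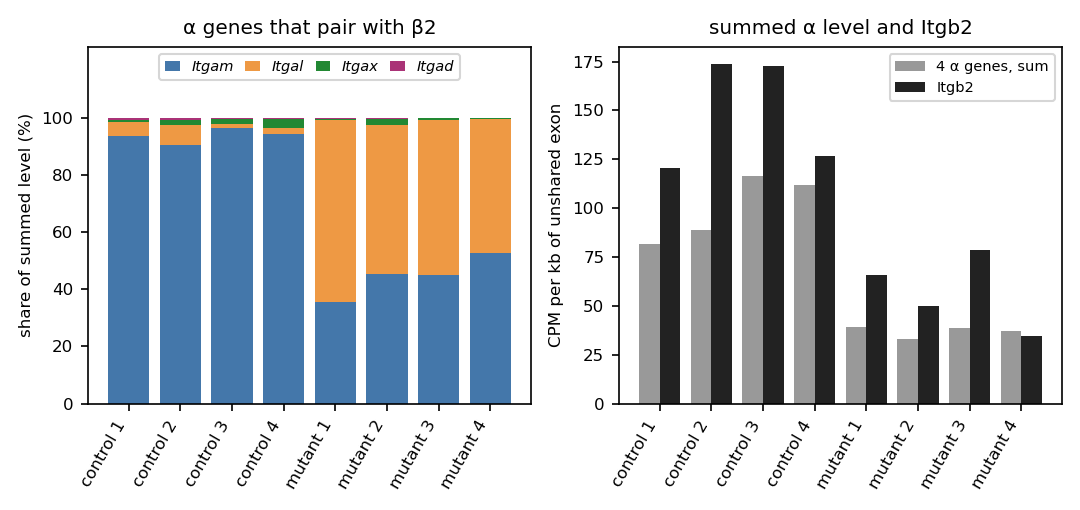
Left, share (%) of the summed level of the 4 α genes that pair with β2 taken by each gene in each library. Right, the summed α level (grey) and *Itgb2* (black) in CPM per kb of unshared exon. *Itgam* made up 90.5% to 96.7% in the 4 controls and 35.8% to 52.7% in the 4 mutants, where *Itgal* filled nearly all of the rest, and on this length both summed α level and *Itgb2* were lower in the mutants.

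*Itga4*, which encodes the α4 chain of VLA-4 (chr2:79255426-79333123, plus strand), was at 8.26, 13.003, 2.24 and 4.65 CPM in controls 1 to 4 and at 29.2, 29.9, 63.3 and 35.1 CPM in mutants 1 to 4. All mutants lay above all controls, with mutant 3 the highest. The mean rose 5.59-fold, from 7.04 ± 4.69 to 39.4 ± 16.1 CPM (log2 fold change 2.48, SE 0.52, edgeR adjusted p = 0.0151). *Itga4* is also made by lymphocytes, and the T and NK marker sums given above were higher in 3 of 4 mutants than in any control. Their part in the *Itga4* difference was not tested. *Cerkl*, on the other strand, shares 8.04% of its exon bases.

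*Itga9*, which encodes α9, a receptor for tenascin C, osteopontin and VCAM1 (chr9:118606690-118901003, plus strand), was at 43.9, 54.8, 72.6 and 49.6 CPM in controls and 146, 77.6, 142.5 and 79.0 CPM in mutants. The highest control and the lowest mutant lay close together, and mutants 1 and 3 stood above the others. The mean rose 2.01-fold, from 55.2 ± 12.4 to 111 ± 38.0 CPM (log2 fold change 1.01, SE 0.27, edgeR adjusted p = 0.0407). The call was lost without control 1, 2 or 4 or mutant 1 or 3 (edgeR adjusted p 0.0874, 0.102, 0.0673, 0.0779 and 0.0915), and when no filter on low counts was used (0.0547). The log2 fold change was 0.85 to 1.17 whichever library was left out.

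*Itga6*, which encodes the laminin receptor chain α6 (chr2:71745616-71858416, plus strand), was at 132, 126, 73.8 and 181 CPM in controls and 63.0, 83.1, 28.7 and 59.2 CPM in mutants. Control 3 lay below mutant 2, so the groups overlapped. The means were 128 ± 44.0 and 58.5 ± 22.5 CPM, and the gene was not called (log2 fold change -1.13, SE 0.35, edgeR adjusted p = 0.0683). DESeq2 called it (adjusted p = 0.0152), as did edgeR on genes with at least 10 counts in all 8 libraries (0.0426) and with a replicate block (0.0200).

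*Itga5*, which encodes the fibronectin receptor chain α5 (chr15:103344286-103366763, minus strand), was at 19.0, 24.1, 20.8 and 13.2 CPM in controls and 21.1, 20.1, 12.3 and 18.6 CPM in mutants. The groups covered almost the same range, with means of 19.3 ± 4.58 and 17.996 ± 3.96 CPM (log2 fold change -0.10, SE 0.25, edgeR adjusted p = 0.841). *Itgb7*, which encodes β7, the partner of α4 in gut homing and of αE (chr15:102215995-102231944, minus strand), was at 33.0, 52.6, 14.4 and 13.5 CPM in controls and 30.01, 39.4, 36.9 and 34.6 CPM in mutants. Its mutants sat together inside a wide control range, controls 1 and 2 being high and controls 3 and 4 low, and it was not called (log2 fold change 0.31, SE 0.41, edgeR adjusted p = 0.672). *Itgae*, which encodes αE, was at 1.59 to 6.55 CPM in controls and 0 to 3.09 CPM in mutants and was not called (edgeR adjusted p = 0.444).

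*Itgb1*, which encodes the β1 chain that α4, α5, α6 and α9 share, was at 165 to 222 CPM in controls and 129 to 204 CPM in mutants and was not called (log2 fold change -0.24, SE 0.20, edgeR adjusted p = 0.480). Summed over the 12 α genes whose products pair with β1, the level was 33.0 ± 3.74 CPM per kb in controls and 37.8 ± 4.04 in mutants, and the groups overlapped. Within that sum *Itga6* made up 29.5% to 55.9% in controls and 8.02% to 25.3% in mutants, and *Itga4* 0.627% to 2.86% and 5.396% to 12.4%, neither overlapping. The share of *Itga9* was 17.4% to 34.0% in controls and 27.7% to 46.8% in mutants, and that of *Itga5* 7.44% to 15.2% and 6.28% to 11.5%, and both overlapped. The make-up of the sum thus differed, with a lower share of *Itga6* and a higher share of *Itga4* in every mutant.

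*Itgb3*, which encodes β3, the partner of αV in the vitronectin receptor (chr11:104608000-104670476, plus strand), was at 18.7, 24.8, 28.6 and 28.0 CPM in controls 1 to 4. In mutants 1 to 4 it was at 0, 0.647, 0.139 and 0.0276 CPM, which are 0, 30, 5 and 1 counts against 723 to 1043 counts in the controls. It was therefore close to absent from every mutant library, with mutant 2 the highest. The mean fell from 25.0 ± 4.56 to 0.204 ± 0.302 CPM (log2 fold change -6.85, SE 0.94, edgeR adjusted p = 0.00178), and without mutant 2 the log2 fold change was -8.76. Platelets carry β3 together with αIIb, and of 3 platelet markers tested 1, *Gp9*, was called lower, at 32.9 to 80.4 CPM in controls and 0 to 3.95 CPM in mutants. The other platelet markers stayed at or below 2.46 CPM in all libraries. The part of platelets in the *Itgb3* difference was not tested. *Itga2b*, which encodes αIIb, was at 2.91 to 10.4 CPM in controls and 2.33 to 6.19 CPM in mutants and was not called (edgeR adjusted p = 0.877).

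Of the 18 other integrin subunit genes, 15 passed the filter (*Itga2*, *Itga8* and *Itga11* did not) and 1, *Itgb5*, was called, lower in the mutants. Over all genes tested, 12.3% were called. *Itgb5* encodes β5, another partner of αV, and was at 1472, 1988, 2391 and 1726 CPM in controls and 610.1, 418, 561 and 364 CPM in mutants, far apart (log2 fold change -1.955, SE 0.23, edgeR adjusted p = 8.86e-04). Among the 5 β genes whose products pair with αV, *Itgb5* made up 91.0 ± 0.802% of the summed CPM per kb in controls and 76.8 ± 1.24% in mutants. *Itgb3* made up 0.731 ± 0.109% and 0.0218 ± 0.0342%. The sum includes *Itgb1*, at 47.5 ± 7.17 CPM per kb in controls and 40.1 ± 9.76 in mutants, which was not called. The lower share of *Itgb5* is thus not separate from its lower level. *Itgav*, which encodes αV itself, was at 34.8 to 42.3 CPM in controls and 42.3 to 54.3 CPM in mutants. That gap was narrow and without a call (log2 fold change 0.25, SE 0.15, edgeR adjusted p = 0.316). *Itgb8*, whose product activates latent TGFβ together with αV, was at 3.74 to 6.23 CPM in controls and 6.12 to 17.1 CPM in mutants and was not called (log2 fold change 1.22, edgeR adjusted p = 0.0540), but was called without mutant 3 (0.0215), by DESeq2 (0.00702) and with 10 counts required in all 8 libraries (0.0401).

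*Itga3*, a laminin receptor chain, was at 8.44 to 19.1 CPM in controls and 22.1 to 29.2 CPM in mutants, and *Itga1*, a collagen receptor chain, at 0.852 to 1.88 and 2.18 to 5.82 CPM. Neither pair of groups overlapped and neither gene was called (log2 fold changes 0.91 and 1.499, edgeR adjusted p = 0.0507 and 0.0790), though *Itga3* was called without control 2 (0.0362). DESeq2 called both (adjusted p = 0.00673 and 0.0134), as did edgeR with 10 counts required in all 8 libraries (0.0381 and 0.0335), and *Itga3* was also called with RLE factors (0.0466). *Itgb2l*, a relative of *Itgb2*, was at 1.19 to 5.88 CPM in controls and 0, 2.09, 0 and 0.0276 CPM in mutants. It was not called (log2 fold change -2.82, edgeR adjusted p = 0.280) but was called without mutant 2 (-8.26, 0.00535). *Itga7*, *Itga10*, *Itgb4* and *Itgb6* stayed at or below 6.22 CPM in every library and were not called, with edgeR adjusted p of 0.668 or more. The median log2 fold change of the 15 genes was -0.17.

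**Figure D3:**
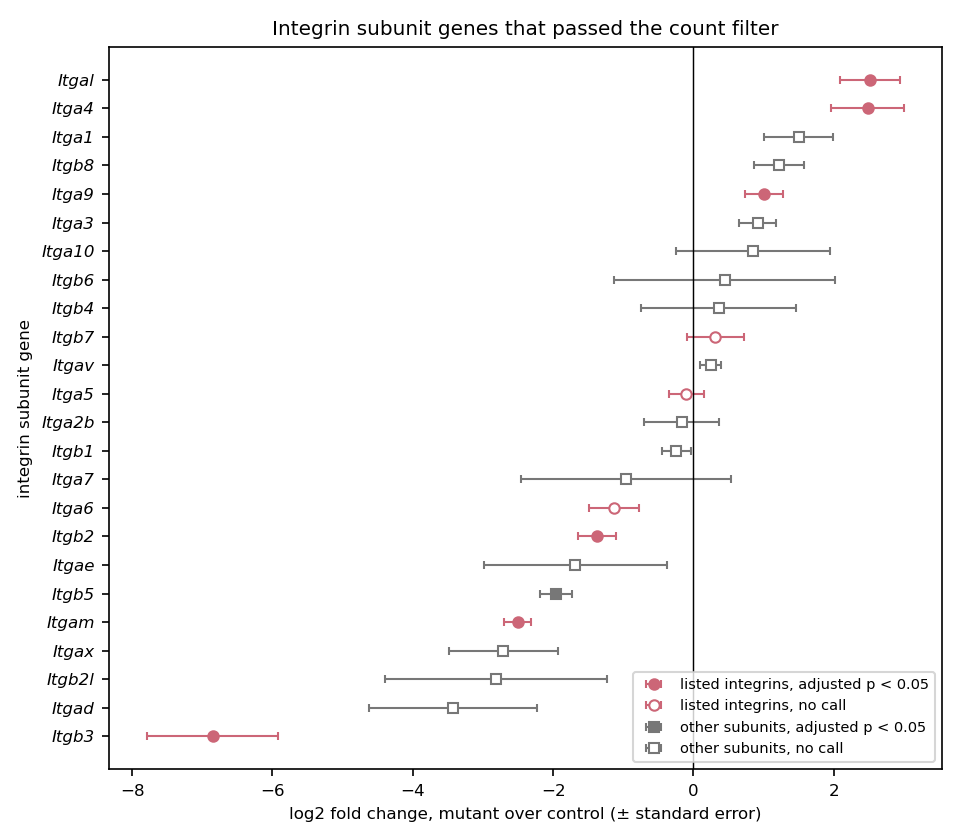
Log2 fold change of mutants over controls (horizontal axis, ± SE) for the 24 integrin subunit genes that passed the count filter (vertical axis, ordered by fold change). Circles are the 9 listed integrins and squares the other subunits, and filled symbols had an edgeR adjusted p under 0.05. *Itgb3* lies furthest to the left at -6.85 and *Itgal* and *Itga4* furthest to the right at 2.52 and 2.48.

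Ordered by CPM per kb within the controls, *Itgb2* stood first at 149 ± 28.8, followed by *Itgam* at 93.8 ± 17.99, and neither overlapped its neighbour. *Itga6* (14.2), *Itgb7* (10.2) and *Itga9* (7.18) came next with overlapping ranges from one to the next. *Itgb3* (4.24), *Itga5* (3.91) and *Itgal* (3.52) also overlapped, and *Itga4* was last at 0.548. In the mutants *Itgb2* was again first at 57.3 ± 19.2 CPM per kb, and *Itgal* (20.2), *Itgam* (16.5), *Itga9* (14.5) and *Itgb7* (12.7) followed, each overlapping the next. *Itga6* (6.48), *Itga5* (3.65) and *Itga4* (3.06) formed a lower group, and *Itgb3* was last at 0.0345. *Itgal* thus held rank 8 of 9 among the controls and rank 2 among the mutants, below *Itgb2*, which it did not overlap, and above *Itgam*, which it did. With the full exon length *Itgam* was at 29.4 ± 5.64 CPM per kb in controls and 5.17 ± 0.803 in mutants, which would place it lower in the mutant order.

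The ligands of these receptors were read from a list of 32 genes, of which 22 passed the filter. Of these 22, 2 were called higher and 4 lower, against 4.36% and 7.97% of all genes tested. The median log2 fold change of the 22 was -0.28. The called genes were all adhesion proteins of the cell surface except the matrix protein gene *Ccn1*. *Vcam1*, which encodes the ligand of α4β1 and α9β1, was at 76.3, 58.7, 22.1 and 48.1 CPM in controls and 1389, 847, 1846 and 877 CPM in mutants. It rose 24.2-fold without overlap (log2 fold change 4.59, SE 0.45, edgeR adjusted p = 3.15e-04). *Ccn1*, which encodes a ligand of αMβ2, αVβ3 and α6β1, was at 24.8, 58.1, 23.0 and 38.0 CPM in controls and 888, 365, 1244 and 577 CPM in mutants (log2 fold change 4.42, SE 0.48, edgeR adjusted p = 5.41e-04), again far apart.

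*Icam1*, which encodes a ligand of αLβ2 and αMβ2, fell from 158 to 281 CPM in controls to 42.3 to 71.2 CPM in mutants (log2 fold change -1.91, SE 0.24, edgeR adjusted p = 0.00117). It thus differed in the direction of *Itgam* and not in that of *Itgal*. The junctional adhesion molecules, which bind β2 integrins or α4β1, fell together. *F11r* (JAM-A) lay at 598 to 1024 CPM in controls and 82.6 to 146 CPM in mutants (log2 fold change -2.84, SE 0.25, edgeR adjusted p = 1.82e-04). *Jam2* was at 109 to 158 CPM in controls and 0.441 to 8.69 CPM in mutants (log2 fold change -4.83, SE 0.79, edgeR adjusted p = 0.00454). *Jam3* was at 15.4 to 34.3 and 1.42 to 4.93 CPM (log2 fold change -2.84, SE 0.49, edgeR adjusted p = 0.00590), and 36.2% of its exon bases are shared with *Gm48796*. No other matrix ligand gene was called by edgeR: *Fn1* (fibronectin) was at 13.6 to 30.04 CPM in controls and 13.3 to 22.5 CPM in mutants, *Spp1* (osteopontin) at 2.42 to 6.82 and 0.0276 to 2.35 CPM, and *Thbs1* (thrombospondin) at 6.80 to 24.0 and 8.91 to 132 CPM. DESeq2 also called *Lama2*, a laminin chain gene that did not pass the filter, lower (0 to 1.61 CPM in controls and 0 in all mutants). It is named after its values were seen.

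Of 33 genes that activate integrins or join them to the cytoskeleton, 31 passed the filter, 1 was called higher and 9 lower, with a median log2 fold change of -0.28. Over all genes tested, 4.36% were called higher and 7.97% lower. Under library totals without a composition factor the calls split into 4 higher and 8 lower. The groups did not overlap for 14 of the 31 genes, 4 higher and 10 lower in the mutants, against 9.04% and 13% of all genes tested. *Fermt3*, the kindlin of blood cells, was at 431, 588, 744 and 456 CPM in controls and 270, 210, 287 and 171 CPM in mutants (log2 fold change -1.24, SE 0.24, edgeR adjusted p = 0.00974). *Tln1*, the main talin of blood cells, overlapped at 132 to 181 and 121 to 181 CPM and was not called (log2 fold change -0.21, edgeR adjusted p = 0.474), whereas *Tln2*, its paralog, fell from 53.9 to 91.0 CPM to 11.8 to 28.8 CPM (log2 fold change -1.87, SE 0.29, edgeR adjusted p = 0.00336). *Apbb1ip* and *Rassf5*, effectors of RAP1 that act on talin and on β2 integrins, were lower, *Apbb1ip* (RIAM) at 50.2 to 67.3 CPM in controls and 14.8 to 27.5 CPM in mutants (log2 fold change -1.35, SE 0.21, edgeR adjusted p = 0.00377) and *Rassf5* (RAPL) at 125.1 to 194 and 35.8 to 91.2 CPM (log2 fold change -1.45, SE 0.29, edgeR adjusted p = 0.0116).

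Among the parvins, which join integrin-linked kinase to actin, the called genes split in direction. *Parva* overlapped at 16.8 to 58.15 CPM in controls and 33.9 to 84.5 CPM in mutants. It was not called (log2 fold change 0.57, edgeR adjusted p = 0.379). *Parvg*, the form of blood cells, fell from 272, 325, 386 and 303 CPM to 61.3, 57.3, 66.0 and 59.5 CPM, with little spread among the mutants (log2 fold change -2.40, SE 0.15, edgeR adjusted p = 4.83e-05). *Parvb* rose from 1.29, 0.676, 2.77 and 3.04 CPM to 6.82, 11.4, 11.02 and 10.3 CPM (log2 fold change 2.35, SE 0.49, edgeR adjusted p = 0.0143). *Lims1* (PINCH1), the third part of that complex, was at 141 to 205 CPM in controls and 69.2 to 77.6 CPM in mutants (log2 fold change -1.24, SE 0.17, edgeR adjusted p = 0.00178). *Vav1*, a guanine nucleotide exchange factor downstream of β2 integrins, was at 286 to 548 and 83.2 to 171 CPM (log2 fold change -1.72, SE 0.29, edgeR adjusted p = 0.00532). *Pxn* (paxillin) and *Rap1b*, named after their values were seen, were also called lower (log2 fold changes -0.75 and -0.71, edgeR adjusted p = 0.0304 and 0.0485). *Ilk* itself shares 89.7% of its exon bases with *Rrp8* and *Taf10*, and no level is given for it.

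**Figure D4:**
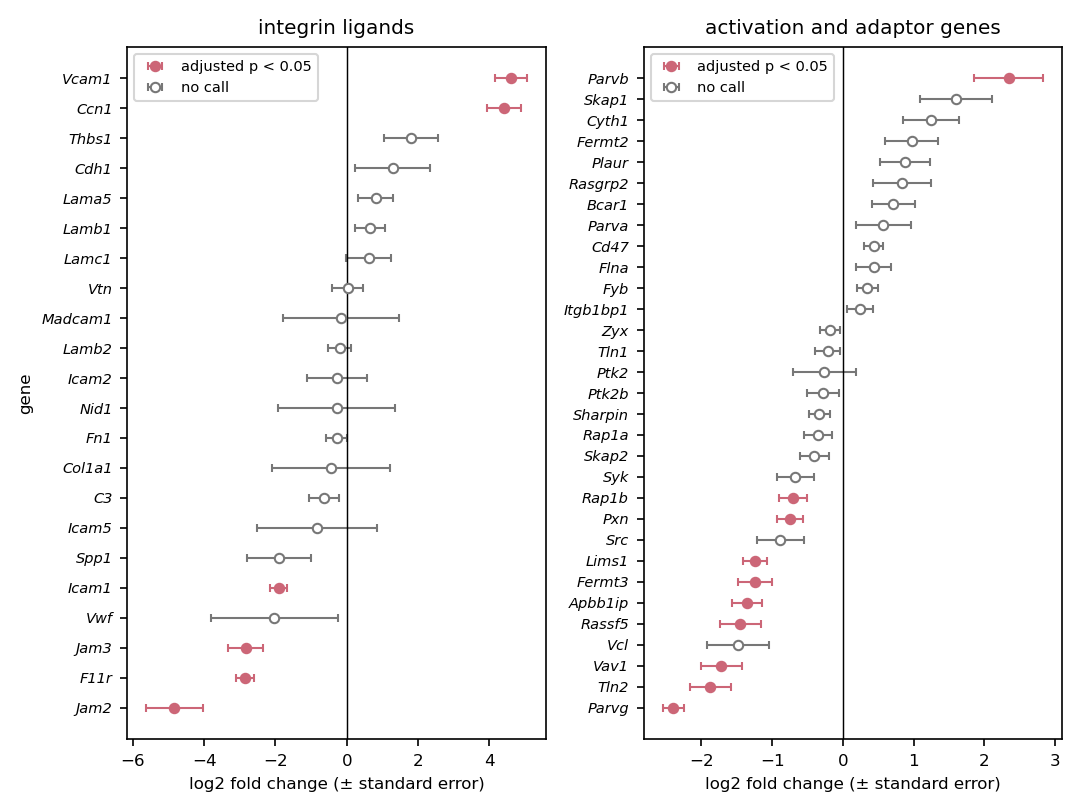
Log2 fold change of mutants over controls (horizontal axes, ± SE) for the integrin ligand genes (left, 22 genes) and the activation and adaptor genes (right, 31 genes) that passed the count filter, ordered by fold change. Filled red points had an edgeR adjusted p under 0.05. *Vcam1* and *Ccn1* stand apart on the right of the ligands at 4.59 and 4.42, and *Parvb* at 2.35 is the called adaptor gene above 0.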

How the data were processed

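Per the labels, RNA of sorted mouse microglia was made into unstranded Nextera XT single-end libraries, whereas the Methods describe NEBNext paired-end libraries and name another deposit for these mutants. Raw counts per gene, not normalized, were deposited by the authors after alignment to mm10 (Rsubread) and counting (featureCounts). Their DESeq2 comparison table (fold changes, standard errors, p-values) was not used. Gene models were those of GENCODE M21, which matched 55480 of the 55573 genes.

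Genes that reached 10 counts in 4 or more of the 8 libraries were fitted with edgeR 4.0.16 in R 4.3.3 (TMM, quasi-likelihood test, no block, n = 4 mutants and 4 controls), and an adjusted p under 0.05 made a call. With a biological coefficient of variation of 0.542, variation among mice limited the precision more than counting did. DESeq2 1.42.0 was an alternative, beside RLE factors, library totals, other filters, a replicate block and leaving out each library. The members and gene lists were chosen with earlier results of these data known. Named by rule were the 9 members, every other subunit that passed the filter, and up to 8 called genes without overlap from each list of ligands and adaptors. Some further genes of these lists were described outside this rule: *Tln1*, *Fn1*, *Spp1*, *Thbs1*, *Lama2*, *Parva*, *Pxn* and *Rap1b*.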

Additional observations from a re-analysis of the deposited data

Results flagged for a closer look

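Of 76 groups of 4 libraries examined for a library far from the other 3 (a gap to its nearest neighbour, relative to the group's range, above Dixon's 95% critical value), 3 were picked out, and chance picks about 1 in 20 groups. *Itga2b*, the αIIb chain of platelets, was at 10.4 CPM in control 2, against 2.91 to 3.33 CPM in the other controls. *Itgb2l* was at 2.09 CPM in mutant 2, against 0 to 0.0276 CPM in the other mutants. *Itgb6*, an epithelial partner of αV, was at 3.73 CPM in mutant 2, against 0 to 0.519 CPM in the other mutants. Mutant 2 also held the most *Itgb3* among the mutants, and the 3 genes picked out are all from the lowly expressed subunits.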

How the results depend on the processing

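The 9 genes gave 5 to 7 calls under every alternative run, including 5 to 6 when a library was left out, and the 6 called genes kept their direction in each fit that tested them. *Itgam*, *Itgal*, *Itgb2* and *Itga4* were called in all 8 fits without a library, and so was *Itgb3*, which could not be tested where 10 counts were required in each of the 8 libraries. Over 40 named genes, 511 of 551 alternative values kept direction and call, 14 lost a call, 17 gained one and 9 reversed. The reversals were of uncalled genes. *Itga5* was at 0.029 on the log2 scale under library totals, where the median of all genes was 0.13 instead of 0.01, and at -0.20 to 0.045 without a library. *Itga2b* was at -0.38 to 0.50, *Itgb4* at -0.47 to 0.81 and *Itgb6* at -2.15 to 0.94 without a library. Calls over all genes went from 2485 to 4751 with DESeq2 and to 1567 to 2499 without a library, the lower counts without control 2 (1572) and control 3 (1567). Other subunits gave 2 calls with RLE factors (1 higher, 1 lower), 6 with DESeq2, 4 with the filter in all 8 libraries and 1 to 3 without a library (2 without control 1, control 2 or mutant 3, 3 without mutant 2). Ligands gave 6 to 7 calls throughout, and adaptors gave 8 to 10 without a library and 9 to 15 under the other alternatives.

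The labels do not say what the replicate numbers share, so the main fit did not pair the samples by them. Whether they mark pairs is not settled. The deviations of same-numbered libraries correlated at 0.166, 0.0183, 0.144 and 0.114. As a hint from the data, 3 of 4 controls correlated best with the mutant of their own number and control 2 with mutant 1, and the same-number pairing had the highest mean correlation (0.111) of the 24 possible. A fit with a replicate block called 2383 genes, 2001 of them shared with the fit without it, 7 of the 9 integrins were called (*Itga6* added, adjusted p = 0.0200), *Itgb4* was at -0.61 and *Itgb6* at -1.97. Genes of a few counts per library, such as *Itgb3* in the mutants, were limited by depth.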
